A study of Mus musculus with 16 samples.

Results

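A set of 10 genes of the unfolded protein response was followed across colon mucosa of mice with and without epithelial Mcc, on a control diet or on sulindac: Hspa5, Xbp1, Ern1, Ern2, Atf4, Ddit3, Creb3l1, Dnajb9, Herpud1 and Trib3. They were chosen by name, and all 10 were measured among the 30783 genes of the array table. Ddit3 had 2 rows, and the row with the higher mean was used for it. RNA came from the mucosal layer of the colon of male C57BL/6J mice, hybridised to 16 Affymetrix arrays. Every mouse carried homozygous floxed Mcc alleles (Mccf/f). Mice named knockout (KO) here also carried the Villin-cre transgene (VILcreMccf/f), which drives Cre in epithelium of the intestine and colon, so other cells of the mucosa keep the gene. Their Mccf/f siblings without Cre are named wild type (WT) here. Feeding began at 6 weeks of age and lasted 10 weeks, with control feed or feed that held sulindac at 320 ppm. Sulindac is an anti-inflammatory drug that inhibits cyclooxygenases. In sulindac-fed mice only inflamed patches of proximal colon were taken, called lesions here, and in control-fed mice normal mucosa from the matching place. The effect of the drug and the choice of inflamed tissue therefore cannot be told apart. The groups held 6 WT control, 3 WT lesion, 3 KO control and 4 KO lesion arrays.

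The unfolded protein response senses misfolded protein in the endoplasmic reticulum (ER), where secreted and membrane proteins are folded. IRE1 kinases (Ern1 and, in epithelium that makes mucus, Ern2) splice Xbp1 mRNA, PERK raises translation of ATF4 and through it CHOP (Ddit3) and Trib3, and membrane-bound factors such as ATF6 and CREB3L1 are cut free to enter the nucleus. Together these factors raise chaperones such as BiP (Hspa5), co-chaperones such as ERdj4 (Dnajb9) and parts of ER-associated degradation (ERAD) such as Herpud1. Colonic goblet cells, which secrete large amounts of mucin, have a highly active ER and use this pathway without injury. Splicing of Xbp1, cleavage of ATF6 and phosphorylation of PERK are not read by these arrays, which measure RNA per gene.

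Promoters of the members were read from RefSeq (build GRCm38.p6), as the 250 bases before the annotated start, for the 8 of 10 members that had an entry. They are shown for Hspa5 and Herpud1 because, of those 8, these 2 held a match to any element searched. Capitals mark the matches.

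Hspa5: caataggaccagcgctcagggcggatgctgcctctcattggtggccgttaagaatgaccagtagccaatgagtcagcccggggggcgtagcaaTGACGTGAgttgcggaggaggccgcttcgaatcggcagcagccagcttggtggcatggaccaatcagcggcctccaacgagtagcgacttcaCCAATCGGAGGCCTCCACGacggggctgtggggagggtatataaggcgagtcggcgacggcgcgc

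Herpud1: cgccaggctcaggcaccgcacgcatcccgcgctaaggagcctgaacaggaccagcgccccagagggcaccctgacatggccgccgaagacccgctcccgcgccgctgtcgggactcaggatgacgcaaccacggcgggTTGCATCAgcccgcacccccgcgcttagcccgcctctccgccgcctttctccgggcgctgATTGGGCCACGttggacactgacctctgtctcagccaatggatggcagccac

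The Hspa5 promoter lies at chr2:34771840-34772089 on the plus strand. Its longer match is the ER stress element ERSE (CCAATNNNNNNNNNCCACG), a site for ATF6 and XBP1 beside NF-Y, 65 to 47 bases before the start. The shorter match, 157 to 150 bases before it, is TGACGTGA, a core of the unfolded protein response element. The Herpud1 promoter, at chr8:94386179-94386428 on the plus strand, held ERSE-II, its shorter form, 52 to 42 bases before the start. It also held the ATF4 element TGATGNAA on the minus strand, printed as TTGCATCA, 112 to 105 bases before it. Both strands were searched for these 4 elements and for TGACGTGG and the cAMP response element TGACGTCA, which share the letters TGACGT with the Hspa5 match. Xbp1, Ern1, Atf4, Ddit3, Dnajb9 and Trib3 held none of these letters in the window. Among 32851 promoters, 0.113% held ERSE, 0.0304% ERSE-II, 0.35% TGACGTGA, 0.563% TGACGTGG, 1.55% TGACGTCA and 3.45% TGATGNAA. A match describes letters and shows no binding.

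As a check of the labels, Mcc read 7.16 ± 0.11 (SD, n = 6) in WT controls and 6.57 ± 0.14 (n = 3) in KO controls, on the deposited log2 scale. It read 7.22 ± 0.16 (n = 3) in WT lesions and 6.44 ± 0.03 (n = 4) in KO lesions, and the arrays of the genotypes did not overlap on either diet. The difference passed the test in lesions (limma, adjusted p = 0.0032) and not in controls (adjusted p = 0.0831). Whether the Mcc row covers the deleted part is not given in the sources used here. The sample descriptions number the arrays in a lower and a higher series. WT controls hold 3 arrays of each, KO controls are all of the higher and all lesions of the lower, so in KO mice the series and the diet cannot be told apart.

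In lesions more members fell than rose. In WT mice 3 members fell (Ern2, Ddit3 and Dnajb9), none rose and 7 did not pass the test. A gene was called where limma's p, adjusted over all 30783 genes by the Benjamini-Hochberg method, was under 0.05, and 15.3% of all genes were called in WT lesions against WT controls, 6.96% higher and 8.35% lower. In KO mice 5 members fell (Ern2, Creb3l1, Dnajb9, Herpud1 and Xbp1), Trib3 rose and 4 did not pass, where 21% of all genes were called, 8.98% higher and 12.1% lower. The median change of the 10 members was -0.20 (log2) in WT and -0.32 in KO, beside -0.06 and 0.01 over all genes. The arrays of lesions and controls did not overlap for 4 of 10 members in WT, against 19.7% of all genes, and for 5 of 10 in KO, against 27.1%. These counts changed when some arrays were left out and with the treatment of the number series. The WT count was 0 with the lower series alone and 1 without WT lesion 3, and the KO count was 2 (Ern2 and Creb3l1) with the series as a covariate. Calls over all genes fell in these fits too. They fell in WT from 4715 to 2980 and 3150, and in KO from 6478 to 2513. The series term rests on the WT controls alone, the only group with both series. A call can be lost while its value stays close, as for Dnajb9 in KO (-0.51, and -0.47 with the covariate). Herpud1 in KO went from -0.42 to -0.15. With the lower series alone, Ern2, Ddit3 and Dnajb9 in WT read -0.73, -0.52 and -0.49. A lost call by itself thus does not show an effect of the series.

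**Figure D1:**
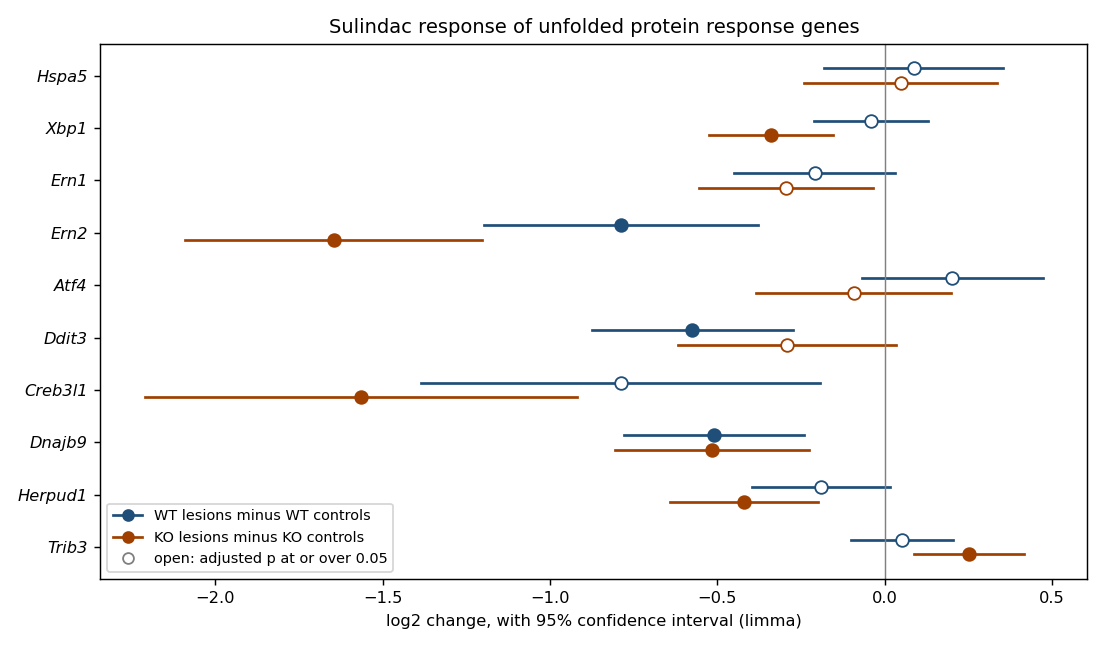
Log2 change of each member in lesions against controls of the same genotype (x axis), with 95% confidence intervals from limma, for WT (blue) and KO (brown). Filled points passed the test. Ern2 and Creb3l1 lie farthest left, at -1.65 and -1.56 in KO, while Hspa5 lies near 0 in both genotypes.

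Ern2, the IRE1 form of mucus-producing epithelium, fell in both genotypes. WT controls read from 9.22 to 9.52 with a median of 9.30, and WT lesions read 8.73, 8.29 and 8.63. KO controls read 9.50, 9.58 and 9.34, and KO lesions 7.50, 8.28, 8.28 and 7.23. Lesion and control arrays did not overlap in either genotype, and KO lesions 1 and 4 were the lowest of all. The fall was 1.73-fold in WT (log2 change -0.79, SE 0.19, limma adjusted p = 0.0105) and 3.13-fold in KO (-1.65, SE 0.21, adjusted p = 4.13e-05). The WT call was lost without WT lesion 2 (-0.66, adjusted p = 0.0741), while the KO call held without any single array and with the series as a covariate.

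Ern1, the IRE1 form found in most cells, showed smaller differences. Its arrays read 7.62 to 8.04 (median 7.97) in WT controls and 7.86, 7.70 and 7.58 in WT lesions. In KO mice controls read 7.97, 8.21 and 7.76, and lesions 7.72, 7.88, 7.63 and 7.51. The groups overlapped in both genotypes, and neither the WT difference (-0.21, SE 0.11, limma adjusted p = 0.248) nor the KO difference (-0.29, SE 0.12, adjusted p = 0.107) passed. The KO difference did pass without KO control 3 (-0.40, adjusted p = 0.0388).

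Creb3l1, which encodes a membrane-bound factor of the ATF6 type (OASIS) linked to secretory cells, was the member with the widest spread among lesions. WT controls read 10.22 to 10.41 (median 10.30) and WT lesions 9.65, 9.05 and 9.84. KO controls read 10.39, 10.57 and 10.03, and KO lesions 7.91, 9.40, 9.46 and 8.29. All lesion arrays lay below all control arrays of their genotype. The gene fell 2.96-fold in KO (-1.56, SE 0.30, limma adjusted p = 0.00145). The WT difference was -0.79 (SE 0.28) and did not pass (adjusted p = 0.0721), though it passed once KO lesion 1 (adjusted p = 0.0252) or KO lesion 3 (0.0419) was left out of the shared estimate of spread, or when the WT arrays were fitted alone (0.00273).

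Xbp1, the transcription factor made active by IRE1 splicing, fell in KO mice. KO controls read 9.85, 9.97 and 9.66, and KO lesions 9.39, 9.52, 9.56 and 9.46, with no overlap. The change was -0.34 (SE 0.09, limma adjusted p = 0.0102), or 1.27-fold. It was -0.27 without KO control 2 (adjusted p = 0.0644) and -0.22 with the series as a covariate (adjusted p = 0.387), so the call rests on those choices. WT controls read 9.62 to 9.94 (median 9.87) and WT lesions 9.79, 9.86 and 9.74, which overlapped. The WT change was -0.04 (95% interval -0.21 to 0.13).

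Atf4, the factor of the PERK and amino acid stress branch, did not pass in either genotype. WT controls read 8.04 to 8.54 (median 8.25) and WT lesions 8.77, 8.21 and 8.44, a difference of 0.20 (95% interval -0.07 to 0.47). KO controls lay close together at 8.21, 8.25 and 8.24, inside the range of KO lesions at 8.14, 8.20, 8.35 and 7.88. ATF4 is regulated mainly by translation, which these RNA levels do not show.

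Ddit3, which encodes CHOP, a factor that promotes cell death under lasting ER stress, fell in WT lesions. WT controls read 7.32 to 7.54 (median 7.48) and WT lesions 7.12, 6.95 and 6.61, all lower. The fall was 1.49-fold (-0.57, SE 0.14, limma adjusted p = 0.0109), and -0.43 without WT lesion 3 (adjusted p = 0.0937). With the series as a covariate it was -0.52 and narrowly missed the threshold (adjusted p = 0.0516). The unused Ddit3 row read 7.39 to 7.63 in WT controls and 6.97, 6.83 and 6.55 in WT lesions, again without overlap. KO controls read 7.52, 7.45 and 7.30, and KO lesions 7.07, 7.48, 6.67 and 7.30. KO lesions 2 and 4 lay within or at the edge of the control range, and the difference of -0.29 did not pass (adjusted p = 0.216).

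**Figure D2:**
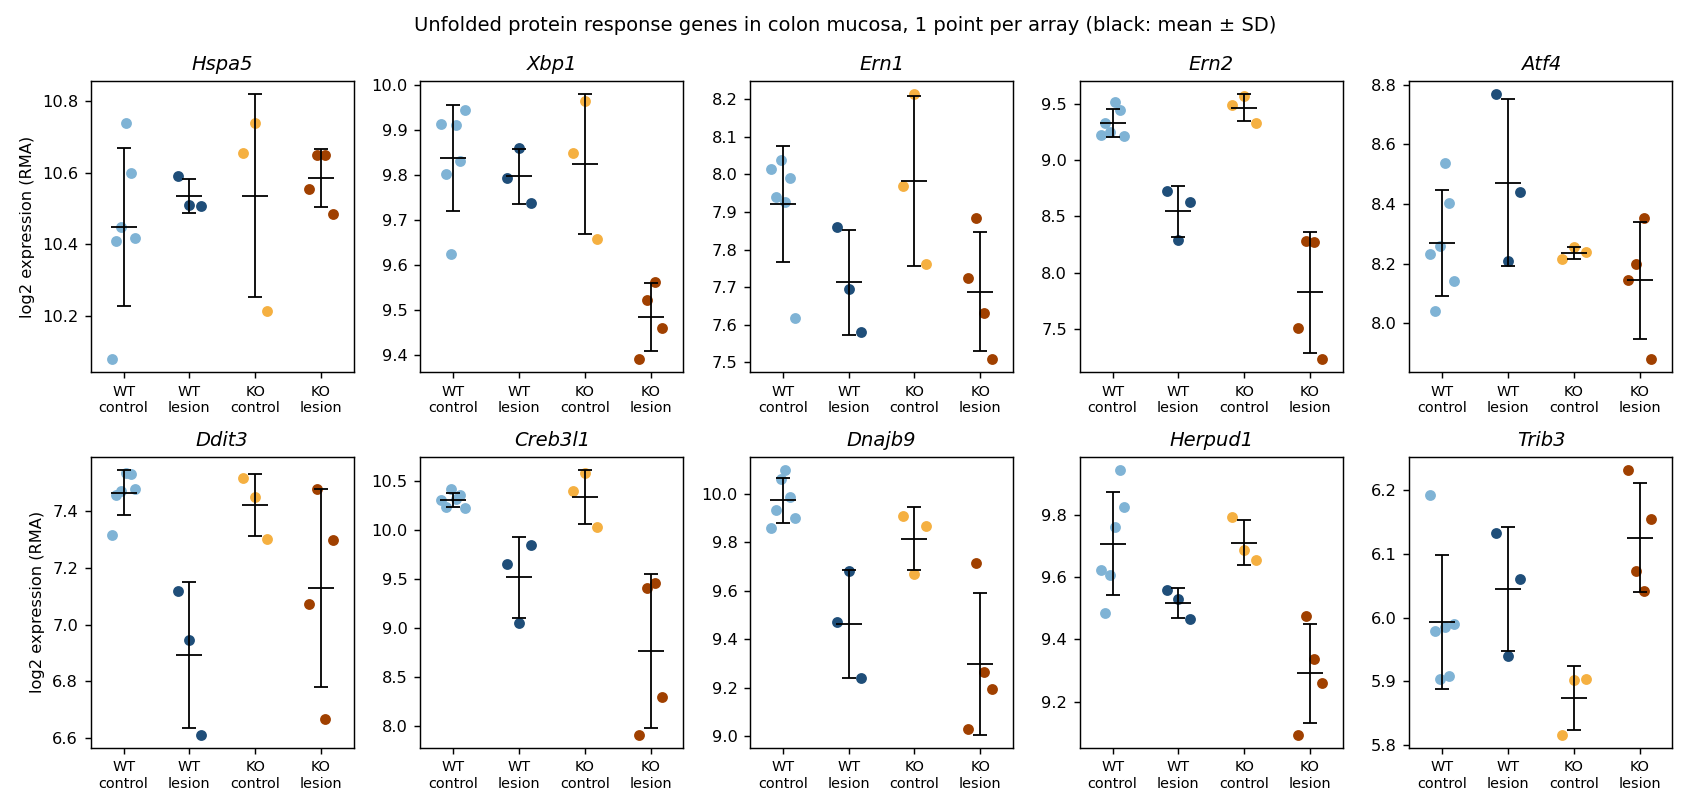
Deposited log2 expression of each member (y axis, a scale of its own per gene) in the 4 groups, with 1 point per array and the mean ± SD in black. Ern2 and Creb3l1 lesions lie below all controls of their genotype, Ddit3 lesions do so in WT alone, and Xbp1 and Herpud1 lesions in KO alone.

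Hspa5 encodes BiP, the main ER chaperone of the HSP70 family and the usual marker of this response, and it was not called in any comparison. WT controls read 10.08 to 10.74 (median 10.43) and WT lesions 10.59, 10.51 and 10.51. KO controls read 10.66, 10.74 and 10.21, and KO lesions 10.55, 10.65, 10.65 and 10.48. Lesions lay inside the range of their controls in both genotypes. The difference was 0.09 in WT (95% interval -0.18 to 0.35) and 0.05 in KO (-0.24 to 0.34), so changes inside these intervals would not be seen here.

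Dnajb9, the BiP co-chaperone that holds IRE1 in check, fell by nearly the same amount in both genotypes. WT controls read 9.86 to 10.10 (median 9.96) and WT lesions 9.47, 9.68 and 9.24, with no overlap. KO controls read 9.91, 9.67 and 9.87, and KO lesions 9.03, 9.71, 9.26 and 9.20, where KO lesion 2 lay above the lowest control. The change was -0.51 in WT (SE 0.13, limma adjusted p = 0.0112) and -0.51 in KO (SE 0.14, adjusted p = 0.0128). It was -0.40 in WT without WT lesion 3 (adjusted p = 0.0924) and -0.47 in KO without KO control 1 (adjusted p = 0.0637). With the series as a covariate the KO value was -0.47 (adjusted p = 0.224).

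Herpud1, an ER membrane protein of the ERAD machinery, fell in KO lesions, where Hspa5, whose promoter also held an ER stress element, was not called. KO controls read 9.79, 9.69 and 9.65, and KO lesions 9.09, 9.47, 9.34 and 9.26, all lower. The fall was 1.34-fold (-0.42, SE 0.10, limma adjusted p = 0.0085). It held without any single array, and with the series as a covariate it was -0.15 (adjusted p = 0.639). WT controls read 9.49 to 9.94 (median 9.69) and WT lesions 9.56, 9.53 and 9.46, which overlapped (-0.19, adjusted p = 0.215).

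Trib3, a pseudokinase induced by ATF4 and CHOP, was the dimmest member and the one that rose in KO lesions. KO controls read 5.82, 5.90 and 5.90, and KO lesions 6.23, 6.07, 6.04 and 6.15, all higher. The rise was 1.19-fold (0.25, SE 0.08, limma adjusted p = 0.0297). The call was lost without KO control 1, 2 or 3 or KO lesion 1 or 4, with adjusted p from 0.0525 to 0.128, and with the series as a covariate (0.19, adjusted p = 0.454). WT controls read 5.90 to 6.19 (median 5.98) and WT lesions 6.13, 5.94 and 6.06, which overlapped. Arrays had medians of 4.90 to 5.05 over all rows, so Trib3 lies where RMA values compress differences.

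The other genes of the pathway were read from 5 lists. Beside their counts, 15.3% of all genes were called in WT (6.96% higher and 8.35% lower). In KO 21% were called (8.98% higher and 12.1% lower). A count near these shares is no result about its list. With the series as a covariate, 2513 of all genes were called in KO, against 6478 without it. Of 17 further sensors and regulators, 1 rose and 2 fell in WT and 5 rose and 4 fell in KO. Creb3l4, a relative of Creb3l1 in secretory epithelium, fell in both (-1.06, limma adjusted p = 0.00216 in WT and -1.83, adjusted p = 2.99e-05 in KO). Eif2ak4, the GCN2 kinase that senses amino acid lack, fell in both (-0.50 and -0.60), and Eif2ak2, the interferon-induced kinase PKR, rose in both (0.93 and 0.79). Called in KO alone were Creb3l3 (0.80), Ppp1r15a (0.64), which restores translation after eIF2alpha phosphorylation, and Mbtps1 (-0.44), the protease that frees ATF6. Smaller changes called in KO alone were Eif2ak3, which encodes PERK (0.35, limma adjusted p = 0.0237), Ppp1r15b (0.31, 0.0283) and Rtcb (-0.34, 0.0358). These smaller calls were each lost without some single arrays and with the series as a covariate. No gene of this list was called for a difference between the responses. With the series as a covariate the KO counts of this list were 1 rise and 3 falls.

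Among 28 further chaperones and folding enzymes of the ER, 2 rose and 6 fell in WT, and 1 rose and 13 fell in KO. The list median was 0.00 in WT and -0.31 in KO. Ero1a, an ER oxidase that is also induced by hypoxia, rose in both genotypes, by 2.59-fold in WT (1.37, SE 0.22, limma adjusted p = 0.000407) and 4.08-fold in KO (2.03, SE 0.23, adjusted p = 1.85e-05). Hsp90b1, the ER form of HSP90, rose in WT (0.36, adjusted p = 0.0287), and that call was lost without WT control 1 or 3 or WT lesion 2 or 3. The Hsp90b1 call was also lost with the series as a covariate (adjusted p = 0.0927). Some disulphide isomerases were among the falls, while Pdia3, Pdia6 and P4hb of the same list were called in neither genotype. Pdia5 changed by -0.73 in WT and -1.55 in KO (adjusted p = 0.0177 and 7.71e-05), and Agr2, needed for mucin folding, fell in KO (-1.28, adjusted p = 0.000279). Agr3 fell by 1.42 (log2) in WT and 1.20 in KO. In lesions it lay under the array medians, where RMA values compress differences. Txndc5 fell in both as well, by 0.64 in WT (adjusted p = 0.0213) and 1.17 in KO (adjusted p = 0.000341). Without WT lesion 2 the count of falls in WT was 1, the WT calls of Pdia5 and Txndc5 being lost there and without WT lesion 3. With the series as a covariate the KO count of falls was 5, and the WT call of Pdia5 was lost (limma adjusted p = 0.0514).

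Of 20 further ERAD genes, 2 rose in WT, the ATPase Vcp (0.42, limma adjusted p = 0.0074) and its adaptor Nploc4 (0.39, adjusted p = 0.0195), both lost without WT lesion 3, and Nploc4 also without WT lesion 1. The Nploc4 call was lost with the series as a covariate too (adjusted p = 0.072). In KO 1 rose, Ube2j1 (0.27, adjusted p = 0.0334), and 5 fell. The largest KO falls were in Selenos (-0.85, adjusted p = 0.000325), Erlec1 (-0.55, adjusted p = 0.0437) and Man1b1 (-0.39, adjusted p = 0.000606). The Ube2j1 call was lost without KO control 3, KO lesion 1 or KO lesion 3, and the Erlec1 call without any 1 of 10 arrays. The count of falls was 2 without KO control 1, 2 without KO lesion 1 and 2 with the series as a covariate. Those 2 were Dnajb12 (-0.51, adjusted p = 0.0121) and Edem3 (-0.75, adjusted p = 0.0191). Selenos, Erlec1 and Man1b1 were not called in that fit (adjusted p = 0.0651, 0.381 and 0.0502).

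The 34 genes of translocation into the ER and export from it gave no call in WT (6 had an unadjusted p under 0.05 in limma) and 9 falls in KO, with medians of 0.01 and -0.28. Kdelr3, a receptor that returns ER proteins (-1.12, adjusted p = 0.000569), Sec31a of the COPII coat (-0.59, adjusted p = 0.00317) and Ssr4 of the translocon (-0.59, adjusted p = 0.00501) fell most in KO. No fall was called with the series as a covariate, where the median was -0.10. That fit called 2513 of all genes in KO, against 6478 without the covariate. Without KO lesion 3, 16 falls of this list were called, and 7010 of all genes in either direction.

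The targets of ATF4 and CHOP had more rises than falls. Of 31, 12 rose and 3 fell in WT, and 8 rose and 3 fell in KO. Slc7a11, the cystine transporter also induced by NRF2, rose 6.85-fold in WT (2.78, SE 0.16, limma adjusted p = 2.31e-08) and 8.48-fold in KO (3.08, SE 0.17, adjusted p = 1.27e-08). Its lesion arrays read 8.14 to 8.87 and its control arrays 5.30 to 5.73. In WT the next largest rises were Wars (0.94), a tRNA synthetase also induced by interferon, and the death receptor Tnfrsf10b (0.80). Both were called in KO too (0.67 and 0.98), and both KO calls were lost with the series as a covariate. The KO call of Wars was also lost without KO control 3 or KO lesion 2 or 4. In KO the next largest were Atf3 (1.44) and Ddit4 (1.36), both general stress genes. In WT Ddit4 was called as well (0.79) and Atf3 was not (0.67, limma adjusted p = 0.0772). Cth, which makes cysteine, fell in both (-1.08 and -1.34), as did Nupr1 (-0.62 and -0.63), Vldlr fell in WT (-0.42) and Stc2 in KO (-0.64). The WT count of rises was 6 without WT lesion 1 and 6 without WT lesion 3, and the KO count was 4 with the series as a covariate. Calls of Tnfrsf10b and Vldlr in WT were lost without WT lesion 1. Those of Nupr1 were lost without WT lesion 2 in WT and without KO control 3 in KO. With the series as a covariate both Nupr1 calls were lost (limma adjusted p = 0.0617 in WT and 0.333 in KO).

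**Figure D3:**
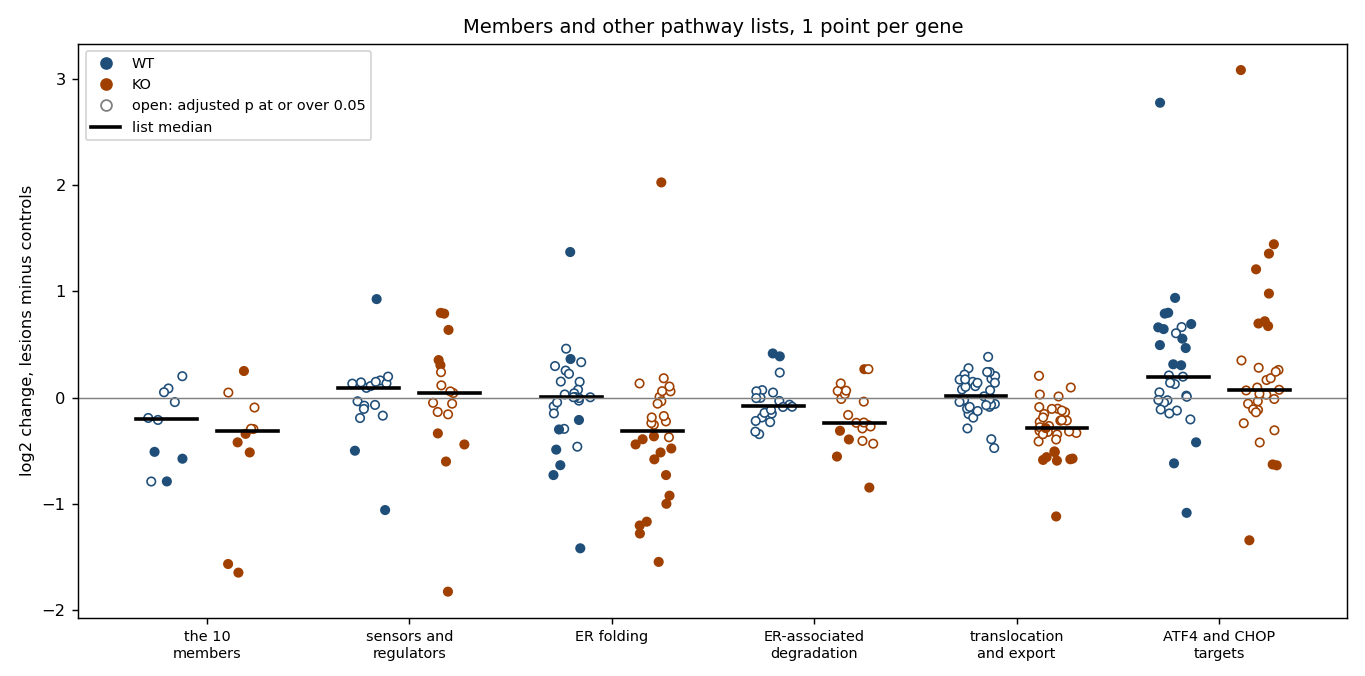
Log2 change of every gene (1 point each, y axis) of the members and of the 5 other pathway lists (x axis), in WT (blue) and KO (brown) lesions against their controls, with filled points for genes that passed the test and bars at list medians. The highest point in both genotypes is Slc7a11, and the medians of the ER folding and the translocation lists lie near 0 in WT and at -0.31 and -0.28 in KO.

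ERSE or ERSE-II was held by 47 promoters (0.143%) in all, by 2 of 8 members, 7 of 26 folding genes, 2 of 18 ERAD genes and no gene of the other 3 lists with an entry. The 9 list genes were Hsp90b1, Calr, Canx, Creld2, Dnajc3, Pdia6, Ero1b, Syvn1 and Derl3. Among these 9 and the 2 members, the calls were the WT rise of Hsp90b1 and the KO fall of Herpud1. Their other log2 changes lay from -0.19 to 0.46 in WT and from -0.43 to 0.18 in KO.

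Markers of cell types differed in lesions too. Among the lesions of each genotype, Dnajb9 kept the per-array order of the mean of the goblet cell markers. Herpud1 kept it in KO alone and Xbp1 in WT alone, while Ern2 and Creb3l1 kept it in neither. Of 14 goblet cell markers, 10 fell in each genotype, with medians of -0.81 in WT and -1.13 in KO. The falls numbered 5 in WT within the lower series and 6 in KO with the series as a covariate. Clca1 changed by -1.56 and -1.10 and Fcgbp by -1.27 and -1.35, all called, and Tff3 by -0.52 and -0.40, not called (limma adjusted p = 0.0508 and 0.154). The mean of the list per array lay from 10.39 to 10.71 in both control groups, at 9.80, 9.84 and 9.53 in WT lesions and at 9.23, 10.03, 9.42 and 9.26 in KO lesions. KO lesion 2 thus had the highest goblet marker level among lesions, and it had the smallest Dnajb9 difference of the KO lesions (-0.10 from the KO control mean). Ern2, Creb3l1 and the goblet marker mean were all lowest in KO lesions 1 and 4. There Ern2 lay at -1.97 and -2.24 and Creb3l1 at -2.42 and -2.04 from the KO control mean. In KO lesions 2 and 3 Ern2 lay at -1.19 and -1.19 and Creb3l1 at -0.93 and -0.87. Ern2 was lower in KO lesion 4 than in 1, and Creb3l1 lower in 2 than in 3. The goblet marker mean had the reverse order in both of these pairs. The goblet marker mean of KO lesion 3 lay at -1.10 from the control mean, near KO lesions 1 and 4 (-1.29 and -1.26) and not near KO lesion 2 (-0.49). In WT the goblet marker mean was lowest in lesion 3 (-0.97), where Creb3l1 differed least (-0.46) and Ern2 (-0.71) was not the lowest. Creb3l4, Pdia5 and Agr2 were also lowest in KO lesions 1 and 4. Among KO lesions Creb3l4 and Pdia5 kept the order of the goblet marker mean, and Agr2 did not for lesions 2 and 3. In WT these genes were lowest in lesion 2, where the goblet marker mean was highest. Fewer goblet cells and less RNA per cell cannot be told apart in such samples, and the part of goblet cell content in the falls was not tested.

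**Figure D4:**
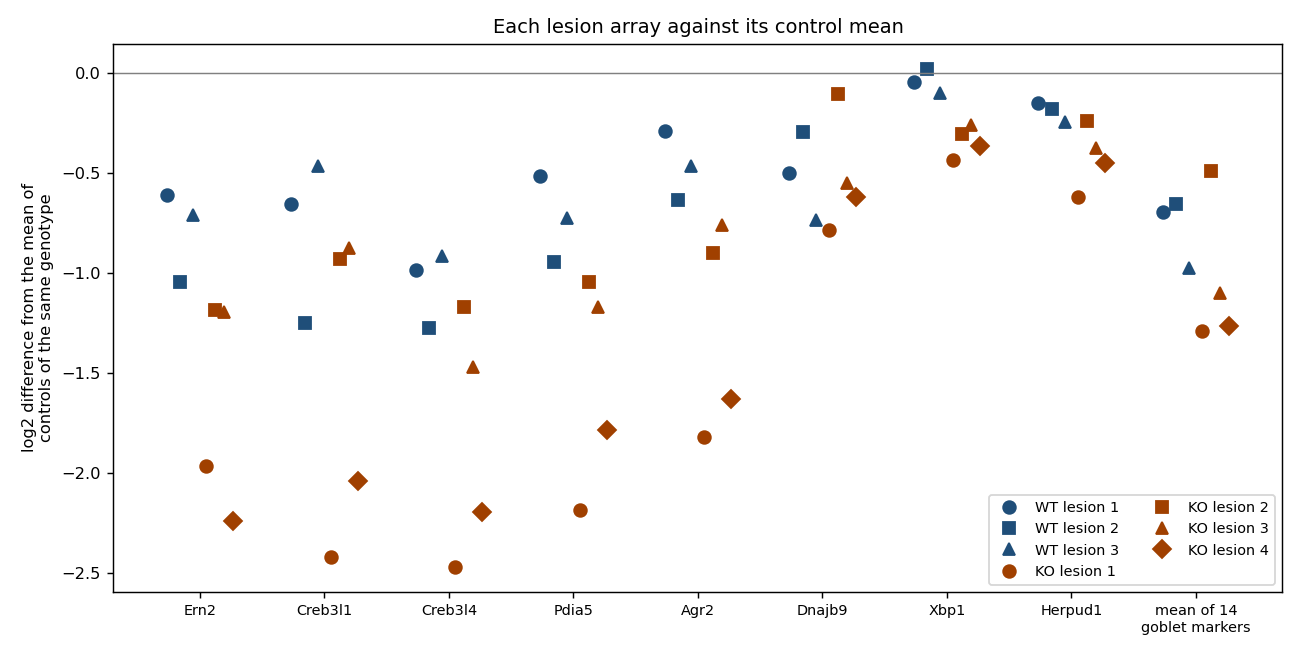
Log2 difference of each lesion array from the mean of the controls of its genotype (y axis) for 8 genes and the mean of 14 goblet cell markers (x axis), WT in blue and KO in brown, with 1 symbol per array. Of the KO lesions, 1 and 4 lie lowest for every gene shown and for the goblet cell markers. KO lesion 2 lies highest of the KO lesions for Ern2, Creb3l4, Pdia5, Dnajb9, Herpud1 and the goblet cell markers.

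General epithelial markers were counted beside 15.3% of all genes called in WT and 21% in KO. Their mean per array lay from 10.51 to 10.73 in controls and from 10.60 to 10.76 in lesions. Among 12 there were 0 rises and 1 fall in WT and 5 rises and 3 falls in KO. The WT count of falls is near the 8.35% of all genes called lower, so it is no result about this list. Epcam differed by 0.06 and 0.17 without a call, while Cdh1 (0.22 in WT, 0.33 in KO) and Vil1 (0.28 and 0.32) rose in KO (limma adjusted p = 0.00714 and 0.0366) and were not called in WT. The Vil1 call was lost without KO control 1 or 3 or KO lesion 1 or 4 (adjusted p up to 0.154). Of 11 markers of absorptive colonocytes 6 fell and 1 rose in WT, and 5 fell and 1 rose in KO. Slc26a3 fell in both (-1.74 and -2.22), Car4 fell in WT (-1.11) and was not called in KO (-0.79, adjusted p = 0.133), and Car1 was called in neither (-0.13 and -0.21). The Car4 call was lost without WT control 1 or WT lesion 3 (adjusted p up to 0.222). All 14 myeloid markers rose in both genotypes, and their mean per array lay from 5.32 to 5.57 in controls, 7.58 to 7.97 in WT lesions and 8.10 to 9.16 in KO lesions. Lyz2 rose by 3.07 and 2.87, Cd68 by 1.44 and 2.17 and Csf1r by 1.56 and 1.85. Of 9 fibroblast markers 8 rose in each genotype (Dcn by 3.76 and 4.11, Col1a1 by 0.87 and 1.01, Col1a2 by 0.66 and 0.64). Of 8 T cell markers 5 rose in WT and 6 in KO. Cd3e (0.66 and 0.56) and Cd3g (0.76 and 0.52) rose in both and Cd3d in KO (0.36), with 0.13 in WT. The Cd3e call was lost in WT without WT lesion 3 and in KO without KO control 2 or 3 or KO lesion 2 or 4, and the KO call of Cd3g without KO control 2 or KO lesion 4. Of 9 endothelial markers 1 rose in WT, Cdh5 (1.31), and 2 in KO, Cdh5 (1.29) and Pecam1 (0.44), the last lost without KO control 1 or 2, and Kdr was not called (0.12 and 0.19). None of 9 smooth muscle markers was called in limma (0 in WT and 1 in KO had an unadjusted p under 0.05), with values of -0.17 and 0.12 for Myh11, 0.17 and 0.26 for Des and 0.18 and 0.48 for Actg2. Plasma cells, which also depend on Xbp1, had 12 markers with 2 rises (Prdm1 and Pou2af1) and 1 fall (Ccr10) in WT and 3 rises (Prdm1, Irf4 and Sdc1) in KO. Their mean per array lay from 5.69 to 5.94 in controls and from 5.81 to 6.13 in lesions. Jchain differed by 1.11 in WT and -0.29 in KO and Mzb1 by 0.19 and -0.05, none called. For Jchain KO lesions read 4.58, 7.57, 6.67 and 7.29 and KO controls 6.75, 6.24 and 7.46. KO lesion 1 alone lay below all KO controls. Sdc1 differed by -0.01 in WT, where it was not called, and by 0.33 in KO (limma adjusted p = 0.0466), a call lost without any 1 of 13 arrays (adjusted p up to 0.154). Prdm1, which other immune cells also express, rose by 1.54 and 2.26 (adjusted p = 5.13e-05 and 1.84e-06), and its arrays read 5.61 to 6.23 in controls and 7.16 to 8.27 in lesions. The KO call of Irf4 was lost without KO control 1 or 3 or KO lesion 1 or 2, and the WT calls of Pou2af1 and Ccr10 without WT lesion 2, that of Pou2af1 also without WT lesion 1. With the series as a covariate, the KO calls of Clca1, Fcgbp, Cdh1, Vil1, Slc26a3, Cd3e, Cd3d, Cd3g, Cdh5, Pecam1, Sdc1 and Irf4 were lost. The WT calls of Car4, Pou2af1 and Ccr10 were lost in that fit too. The part of these cells in the members' levels was not tested.

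By the root mean square difference over the 16 arrays, each gene centred on its WT control mean, the genes most like Ern2 were Tspan13 (0.15), Pdia5 (0.17) and Vkorc1 (0.19), where the median gene differed by 0.86 (all log2). Those most like Dnajb9 were Phospho2 (0.11), Tmem59 (0.13) and the goblet cell marker Zg16 (0.13), where the median gene differed by 0.44.

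On the control diet no member differed between the genotypes in the test. The differences, KO minus WT, lay from -0.16 (Dnajb9) to 0.13 (Ern2), with 95% intervals within -0.57 to 0.62 and limma adjusted p of 0.9995 each. Over all genes 0% were called, and 648 had an unadjusted p under 0.05, none of them a member. Arrays did not overlap for 1 of 10 members, Trib3, against 1.39% of all genes, where the highest KO control read 5.903 and the lowest WT control 5.9035.

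Between lesions of the genotypes no member passed either, where 0.305% of all genes did, 0.247% higher and 0.0585% lower in KO. Of the 10, 5 had an unadjusted p under 0.05 in limma, all lower in KO lesions, as had 4140 of all genes. These were Xbp1 (-0.31, adjusted p = 0.149), Ern2 (-0.72, 0.164), Creb3l1 (-0.75, 0.304), Atf4 (-0.33, 0.315) and Herpud1 (-0.23, 0.363). The lesion arrays of the genotypes did not overlap for Xbp1 and Ern2, against 9.41% of all genes. Ern2 came close, at 8.28 in the highest KO lesion and 8.29 in the lowest WT lesion. Without KO lesion 3 the differences of Xbp1 (-0.34, adjusted p = 0.0494) and Ern2 (-0.88, adjusted p = 0.0214) passed, along with 1698 genes in all, against 94 with every array. In the ERAD list Selenos was called (-0.69, adjusted p = 0.0472), and that call was lost with the replicate block (adjusted p = 0.197) and without any 1 of most arrays, WT lesion 1 among them (adjusted p = 0.167).

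The difference between the responses, KO minus WT, passed for no member, and 0.00325% of all genes passed. The unadjusted p was under 0.05 in limma for 2 members, Ern2 (-0.86, 95% interval -1.46 to -0.25, unadjusted p = 0.0084 and limma adjusted p = 0.405) and Xbp1 (-0.30, unadjusted p = 0.023, adjusted p = 0.41). Creb3l1 differed by -0.78 (adjusted p = 0.47), Dnajb9 by -0.01 (95% interval -0.40 to 0.39) and Ddit3 by 0.28 (adjusted p = 0.561). Of the 34 translocation and export genes 31 had a lower value in KO than in WT and 17 an unadjusted p under 0.05 (3433 of all genes), with a median of -0.32 beside 0.06 over all genes, and none was called. Because KO controls differ from KO lesions in number series, this comparison carries the series as well as the genotype. The calls of single members in 1 genotype and not in the other therefore do not show a difference between genotypes.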

How the data were processed

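The authors deposited 1 table of log2 expression values for 16 arrays, made by RMA with Affymetrix Power Tools 1.16.1, per the submitters' processing notes. RMA corrects background, normalises arrays by quantiles and summarises probes. The genome build is not given in the sources used here. Of 72688 rows, 31258 had 1 gene symbol in the platform annotation, 1492 had several and 39938 were not listed, and the last 2 kinds were not used. Symbols were updated through RefSeq GRCm38.p6, and the row with the highest mean was kept for each of 366 genes with more than 1 row, which left 30783 genes.

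Group means were fitted over all 16 arrays with limma 3.58.1 in R 4.3.3, with empirical Bayes moderation and two-sided tests, and p-values were adjusted by the Benjamini-Hochberg method over all genes. A gene was called at an adjusted p under 0.05. The fit was tested on simulated data. The number of arrays limits the precision. No label says which arrays come from separate mice, so p-values measure the spread between these samples. Within groups, arrays correlated at 0.98 to 0.991.

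The members and gene lists were chosen with earlier results of these data known. Of each other pathway list, at most the 3 largest rises and falls among called genes of each response are named, and of each marker list the first 3 measured genes. For members called in both responses, the 3 genes nearest to them over the arrays are named. Other genes named, such as those with an element in the promoter, the list genes shown per lesion array and further called markers, were chosen after their values were seen. Listed genes without a row of 1 symbol are not analysed here.

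Alternatives were the number series as a covariate, as a random block or held fixed, a replicate block, other samples in the fit, another prior, median centring, a filter on dim genes, the mean of rows, and each array left out. Replicate numbers of the titles were checked as pairs by the correlation of deviations from group means over 30783 genes. These were 0.465, 0.296 and 0.54 between WT and KO lesions, over the 0.1 required of every pair. Correlations between arrays of unlike number were not computed, so this does not show that the numbers pair mice, and the main fit used no pairs. Between WT lesions and WT controls the correlations were 0.347, 0.171 and 0.097. In the other comparisons all were negative, so the numbers were not taken to pair those arrays.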

Additional observations from a re-analysis of the deposited data

Results flagged for a closer look

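Of 20 groups of 4 or 6 arrays examined for the members, 3 held an array far from the rest of its group, where chance alone flags about 1 in 20 groups. WT control 6 read 7.6179 for Ern1, with the other 5 WT controls between 7.9264 and 8.0389. WT control 1 read 7.3167 for Ddit3, below the other WT controls at 7.4583 to 7.5354. The same array read 6.1933 for Trib3, above the others at 5.9035 to 5.9901. No array was removed for this.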

How the results depend on the processing

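Counts of called members were recomputed under every alternative. The WT response, 3 called members as reported, gave 1 (Ddit3) with the replicate block, 0 within the lower number series, where Ern2, Ddit3 and Dnajb9 had adjusted p from 0.0994 to 0.12, and 1 to 4 when 1 array was left out. The KO response, 6 as reported, gave 2 with the number series as a covariate and 4 to 6 when 1 array was left out, and 5 with the replicate block, without Trib3. Calls over all genes fell as well. In WT they fell from 4715 to 3531 with the replicate block and 2980 within the lower series, and in KO from 6478 to 2513 with the covariate. The genotype difference in lesions, 0 as reported, gave 0 to 2 when 1 array was left out, and 0 with the replicate block, although that block cut the calls over all genes from 94 to 2. The genotype difference on the control diet and the difference between responses gave 0 under every alternative run. Directions turned for Xbp1 in WT (0.0174 with the series as a covariate and within the lower series), Atf4 in KO (0.0916 with the covariate), Phgdh in KO (-0.0279 with the replicate block, -0.0136 with centred arrays), and, when 1 array was left out, in KO for Hspa5 (-0.1126 to 0.15), Asns (-0.0515 to 0.1514) and Phgdh (-0.0616 to 0.1051). The cause was not tested. No within-series value exists for the KO response. RMA values near the array medians, as in Trib3 and Agr3, compress differences, and 3 or 4 lesions per genotype limit what can be called.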

Other observations

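Of the ATF4 targets, 4 genes of amino acid and folate metabolism rose in WT lesions and were not called in KO lesions. They were chosen after their values were seen, and they are not the whole of a pathway. Psph, the last enzyme of serine synthesis and a gene of the same list, was called in neither (-0.02 in WT, limma adjusted p = 0.852, and -0.03 in KO, adjusted p = 0.824). Mthfd2 and Aldh18a1, also of that list, were called in neither as well, and Cth fell in both (-1.08 and -1.34). In WT lesions against WT controls Phgdh, the first enzyme of serine synthesis, rose by 0.65 (log2, limma adjusted p = 0.0132), Psat1, its next step, by 0.56 (adjusted p = 0.00867), Shmt2, which passes serine carbon to folate in mitochondria, by 0.69 (adjusted p = 0.0131) and Asns, asparagine synthetase, by 0.66 (adjusted p = 0.0155). In KO lesions against KO controls these 4 genes differed by 0.03, 0.10, 0.18 and 0.07. The WT lesion arrays read 7.85, 6.97 and 7.59 for Phgdh and 9.05, 8.53 and 9.11 for Asns, with WT lesion 2 the lowest of the 3 for both. KO lesions read 6.86, 6.71, 7.21 and 6.97 for Phgdh and 8.33, 8.27, 8.82 and 8.35 for Asns. The difference between the responses, KO minus WT, was -0.62 for Phgdh, -0.46 for Psat1, -0.51 for Shmt2 and -0.59 for Asns, none of which passed (adjusted p from 0.409 to 0.459). Each of the 4 WT calls was lost without WT lesion 3 (adjusted p from 0.0625 to 0.101), and those of Phgdh, Shmt2 and Asns also without WT lesion 1 (0.0732 to 0.0926).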
